A study of Mus musculus with 6 samples.

Results

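The 10 genes described here encode the transforming growth factor beta (TGF-beta) ligands Tgfb1, Tgfb2 and Tgfb3, their receptors Tgfbr1, Tgfbr2 and Tgfbr3, and the latent TGF-beta binding proteins Ltbp1, Ltbp2, Ltbp3 and Ltbp4. They were taken by gene symbol from a table of 21989 symbols, and all 10 were found. RNA was sequenced from the left ventricle of male C57BL/6 mice. The ISO group (3 libraries, called heart failure in the labels) was injected under the skin with ISO at 10 mg/kg per day for 3 weeks, and the saline group (3 libraries, called sham) was injected with an equal volume of normal saline. The labels give the agent by that abbreviation alone. No genetic change, and no age, is given for either group, and the labels speak of biological repeats without tying a library to 1 animal or a pool. The p-values measure the spread between these libraries only. All levels are FPKM, read fragments scaled by gene length and by library total. They can be compared between genes, except that a trend with gene length remained in saline 3, as given below. Chromosome positions of genes come from RefSeq (build GRCm38.p6).

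TGF-beta is secreted in a latent form. Each ligand dimer stays wrapped in its own propeptide, which is bonded to a latent binding protein that anchors the complex to fibrillin and fibronectin in the matrix. Integrins, thrombospondin and proteases release the ligand, which binds the type II receptor. That receptor phosphorylates the type I receptor, and the type I receptor then phosphorylates Smad2 and Smad3. In the heart this pathway is best known for turning resident fibroblasts into matrix-secreting myofibroblasts.

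Every one of the 10 genes had a higher mean in ISO than in saline, and none passed the test. The mean of Ltbp2 was 1.81 ± 0.524 FPKM with saline and 7.60 ± 1.97 FPKM with ISO (SD, n = 3), a ratio of 4.20. Tgfb3, at 16.9 ± 3.32 and 27.6 ± 0.278 FPKM, followed by p, and Tgfbr3 was nearly level at 8.98 ± 3.44 and 9.21 ± 1.84 FPKM. The limma fit over the 12269 genes with a mean of at least 1 FPKM, on log2(FPKM + 1), called 0 genes at adjusted p 0.05 (0% of those tested). The adjusted p was 0.699 for 9 of the 10 genes and 0.926 for Tgfbr3. At an unadjusted p under 0.05 stood 2 of the 10 genes, Tgfb3 and Ltbp2, against 774 of all genes tested (6.31%), and limma-voom on whole reads also called 0 genes, with 678 at an unadjusted p under 0.05. No overlap between groups was seen for 4 of the 10 genes (Tgfb2, Tgfb3, Tgfbr1 and Ltbp2), each higher in ISO, where 16.5% of all genes tested did not overlap in either direction and 12.8% did so upward. The median log2 fold change was 0.60 over the 10 genes and 0.20 over all genes tested, of which 68.1% were above 0. Without saline 3 these medians were 0.34 and 0.06, 9 of the 10 genes were above 0 (59.1% of all genes), and 5 of the 10 were separate, Tgfb1 being added (18.3%). Separate groups were also counted without saline 1 (7 of 10 genes, against 20.1% of all genes), without ISO 3 (4 of 10, against 20.1%), with median-of-ratios scaling (4 of 10, against 7.48%) and with quantile normalization (3 of 10, against 6.89%). Sample quality weights, which let limma count a deviating library less, called 2 of the 10 genes, Ltbp2 and Tgfb3, both higher, among 6.26% of all genes called and 4.25% called higher. That call was lost when saline 3 was left out as well (0 genes, 0%).

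Library totals ran from 2776152 reads (saline 3) to 9862363 reads (saline 1), and the 10 genes held from 29 reads (Tgfb2 in saline 3) to 8247 reads (Ltbp4 in saline 1) in a library. Intervals given below for single libraries are 95% exact Poisson intervals of those reads and cover counting error only. Saline 3 stood apart from the other 5 libraries, with a Pearson r across genes of 0.788 to 0.830 against at least 0.918 among the rest. Its genes of 4000 to 6000 bases had a median of -0.58 on the log2 scale against saline 1 and 2, and its genes under 2000 bases a median of 0.12. The ventricular light chain Myl2 exceeded the atrial light chain Myl7 in saline 3 (9101 and 7469 FPKM), while Myl7 was above Myl2 in the other 5 libraries, which goes against the left ventricle label there. Saline 3 and ISO 3 also carried 201 and 182 FPKM of Scgb1a1, a secretory protein of airway cells, against 0.869 to 13.2 FPKM elsewhere. Values without saline 3 are therefore given beside those with it. Leaving it out keeps only libraries in which Myl7 was above Myl2.

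The stretches before the start of Ltbp2, the gene with the largest ratio, of Ltbp1, its relative whose groups overlapped, and of Tgfb1, the most abundant ligand, are printed from RefSeq on GRCm38.p6 so that their letters can be compared. Windows of 250 bases before each annotated start were searched on both strands for the cAMP response element TGACGTCA, the AP-1 site TGANTCA, the Smad box CAGAC and the GC box GGGCGG. Among 32851 such windows these letters were present in 1.55%, 6.75%, 42.2% and 32.7%. Of the 10 genes, 8 matched the promoter table, and Tgfb3 and Tgfbr3 did not. Printed bases run 5′ to 3′ on the gene's strand and stop before the outermost RefSeq start, and capitals mark any of the 4 motifs.
Ltbp2: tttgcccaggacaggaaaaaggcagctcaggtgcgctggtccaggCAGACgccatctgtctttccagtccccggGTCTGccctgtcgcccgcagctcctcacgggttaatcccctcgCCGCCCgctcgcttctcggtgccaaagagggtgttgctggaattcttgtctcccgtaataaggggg
Ltbp1: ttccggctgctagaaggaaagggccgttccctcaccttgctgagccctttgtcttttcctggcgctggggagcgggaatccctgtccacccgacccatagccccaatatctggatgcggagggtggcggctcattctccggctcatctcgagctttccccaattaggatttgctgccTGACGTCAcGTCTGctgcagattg
Tgfb1: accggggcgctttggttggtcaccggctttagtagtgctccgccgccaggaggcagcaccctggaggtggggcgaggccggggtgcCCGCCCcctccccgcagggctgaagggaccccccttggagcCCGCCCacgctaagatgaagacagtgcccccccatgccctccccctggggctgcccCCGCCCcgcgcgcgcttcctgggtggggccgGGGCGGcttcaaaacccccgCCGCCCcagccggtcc
The Ltbp2 stretch is chr12:84876559-84876741 (minus strand, 183 bases) and holds 2 Smad boxes and 1 GC box. The Ltbp1 stretch, chr17:75005279-75005479 (plus strand, 201 bases), holds 1 cAMP response element and, after a single base between them, 1 Smad box. Tgfb1, at chr7:25686752-25687001 (plus strand, 250 bases), has 5 GC boxes and neither of the other marked motifs nor an AP-1 site. Among the windows of the 8 genes the cAMP response element was found only at the printed Ltbp1 start, 1 of its 2 annotated starts. The AP-1 site was found in 0 of these windows. A match is a description of the letters and shows no binding.

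Among the ligands, Tgfb1, the main ligand of fibroblasts, blood platelets and macrophages (chromosome 7, 25687002 to 25705077), was at 19.9, 23.3 and 25.7 FPKM with saline, and 25.2, 36.9 and 50.7 FPKM with ISO. The groups met at a single point, since ISO 1 lay just under saline 3, with intervals of 22.8 to 27.8 FPKM and 21.8 to 30.0 FPKM. ISO 2 and ISO 3 were above every saline library. Its log2 fold change was 0.64 (SE 0.30, 95% confidence interval -0.06 to 1.34, adjusted p = 0.699 with limma). Leaving out saline 3, ISO 1 or ISO 3 gave 0.72, 0.89 and 0.40. Tgfb1 is short (2175 bases were used for its FPKM), and it was the one gene of the 10 with its highest saline value in saline 3.

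Tgfb3, a ligand that is prominent in development and scarring (chromosome 12, 86056743 to 86079041), was at 14.2, 20.6 and 15.9 FPKM in the saline group, where ISO 1 to 3 had 27.9, 27.6 and 27.3 FPKM. The 3 ISO libraries lay within 1 FPKM of each other and all lay above the saline range. The counting intervals kept the groups apart as well, with an upper limit of 22.6 FPKM in saline 2 and a lower limit of 25.01 FPKM in ISO 3. Its log2 fold change of 0.69 (SE 0.23, interval 0.16 to 1.22, unadjusted p = 0.0176, adjusted p = 0.699 with limma) became 0.66 when saline 3 was left out, and ran from 0.58 to 0.84 over each library left out in turn.

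Tgfb2, the ligand that needs the co-receptor most (chromosome 1, 186622787 to 186709697), was the least abundant of the 10 genes. It was at 2.52, 2.22 and 1.92 FPKM in the saline libraries against 3.19, 2.68 and 4.19 FPKM in the ISO libraries. ISO was higher in every library, but the gap was narrow, since the interval of ISO 2 (2.11 to 3.36 FPKM) spanned the value of saline 1. The log2 fold change was 0.43 (SE 0.27, interval -0.21 to 1.06) and 0.36 without saline 3.

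**Figure D1:**
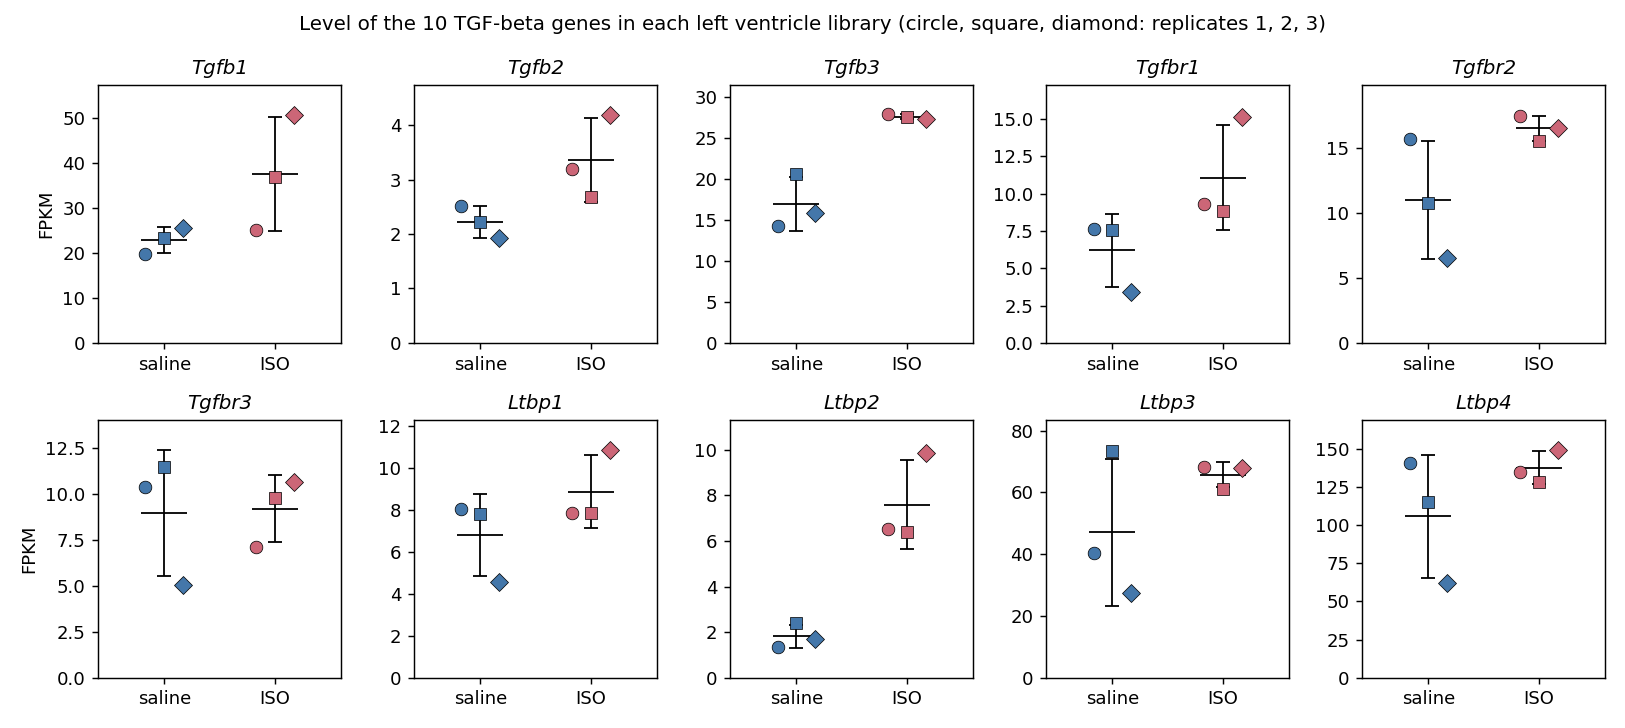
FPKM (y axis, from 0) of each of the 10 genes in the saline (blue) and ISO (red) libraries, 1 point per library, with the mean and SD of each group as a bar. Ltbp2 and Tgfb3 have ISO points well above the saline points, and saline 3 (diamond) is the lowest of the 6 points for 7 of the 10 genes.

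Among the receptors, Tgfbr1, the type I kinase that phosphorylates Smad2 and Smad3 (chromosome 4, 47353222 to 47414926), was at 7.65, 7.58 and 3.40 FPKM with saline, and 9.27, 8.80 and 15.1 FPKM with ISO. The groups did not overlap, ISO 3 was the highest and saline 3 the lowest. The log2 fold change of 0.77 (SE 0.36, interval -0.08 to 1.62) was 0.45 without saline 3 (interval -0.18 to 1.07) and was 0.54 without ISO 3. Intervals of saline 1 (6.97 to 8.38 FPKM) and ISO 2 (7.80 to 9.89 FPKM) overlapped, so the edge between the groups lay within counting error.

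Tgfbr2, the type II kinase that binds the ligand (chromosome 9, 116087695 to 116175363), was at 15.6, 10.7 and 6.55 FPKM in the saline group, where ISO 1 to 3 had 17.5, 15.5 and 16.5 FPKM. Saline 1 sat inside the ISO range, and the saline libraries were more spread than the ISO libraries. Its log2 fold change was 0.62 (SE 0.32, interval -0.13 to 1.37), and it was 0.32 without saline 3 and 0.89 without saline 1.

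Tgfbr3, betaglycan, a co-receptor without a kinase that presents the ligands (chromosome 5, 107106567 to 107289629), was at 10.4, 11.5 and 5.06 FPKM in the saline libraries against 7.14, 9.81 and 10.7 FPKM in the ISO libraries. The groups overlapped fully. Its log2 fold change was 0.09 (SE 0.34, interval -0.72 to 0.89), and the sign turned without saline 3 (-0.24, interval -0.76 to 0.28). It was also negative with median-of-ratios scaling, quantile normalization and sample quality weights, so the direction of Tgfbr3 was not determined.

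**Figure D2:**
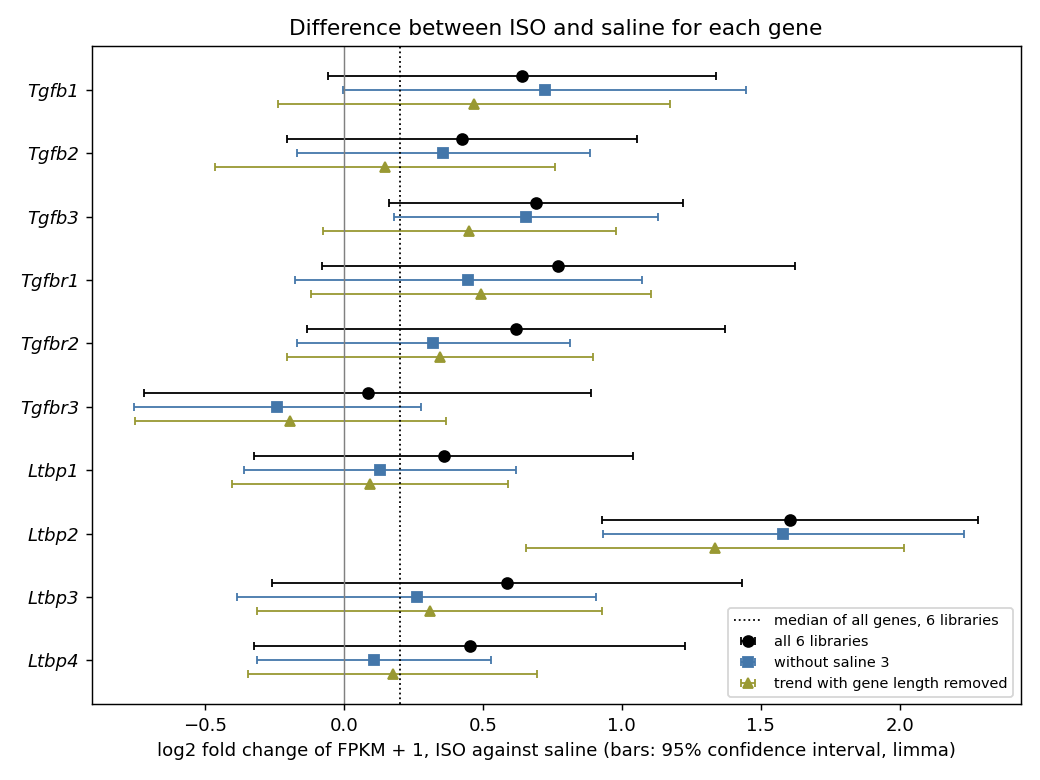
Log2 fold change of FPKM + 1 between ISO and saline (x axis) for each of the 10 genes, with its 95% confidence interval from limma, for all 6 libraries (black), without saline 3 (blue) and with each library's trend with gene length removed (olive). Ltbp2 stays between 1.34 and 1.61, while Tgfbr3 is at 0.09 with all libraries and at -0.24 without saline 3.

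Of the latent binders, Ltbp2 (chromosome 12, 84783212 to 84876558) is a fibrillin-binding matrix protein that, unlike its relatives, does not bind the latent ligand. It was at 1.36, 2.39 and 1.68 FPKM with saline, and 6.52, 6.41 and 9.87 FPKM with ISO. The lowest ISO library was above the highest saline library by far more than counting error (lower limit 5.64 FPKM in ISO 2, upper limit 2.87 FPKM in saline 2). Its log2 fold change was 1.61 (SE 0.29, interval 0.93 to 2.28, unadjusted p = 0.000755, adjusted p = 0.699 with limma). The pseudocount of 1 FPKM shrinks it, and with 0.1 it was 2.02. It was 1.58 without saline 3 and 1.43 to 1.75 over all libraries left out. Saline 3 was not low for this gene (-0.08 on the log2 scale against saline 1 and 2, from 35 reads in saline 3), although Ltbp2 is long (7507 bases).

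Ltbp4, the partner of elastic fibres (chromosome 7, 27305140 to 27339720), was the most abundant of the 10 genes, at 141, 115 and 61.8 FPKM in the saline group, where ISO 1 to 3 had 135, 129 and 149 FPKM. Saline 3 was the only library under 100 FPKM. The log2 fold change of 0.45 (SE 0.33, interval -0.32 to 1.23) was 0.11 without saline 3 and 0.70 without saline 1.

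Ltbp3, which binds all ligand isoforms and serves their secretion (chromosome 19, 5740900 to 5758536), was at 40.4, 73.4 and 27.3 FPKM in the saline libraries against 68.2, 60.99 and 67.8 FPKM in the ISO libraries. The highest value of all was in saline 2, and the ISO libraries were close together. The log2 fold change of 0.59 (SE 0.36, interval -0.26 to 1.43) was 0.26 without saline 3 and 0.96 without saline 2.

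Ltbp1, which tethers the latent complex to the matrix (chromosome 17, 75005480 to 75392512), was at 8.03, 7.80 and 4.54 FPKM with saline, and 7.84, 7.86 and 10.9 FPKM with ISO. Without saline 3 and ISO 3, the other 4 libraries lay between 7.80 and 8.03 FPKM. For Ltbp1 the log2 fold change was 0.36 (SE 0.29, interval -0.32 to 1.04), 0.13 without saline 3 and 0.22 without ISO 3.

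Saline 3 was the lowest of all 6 libraries for 7 of the 10 genes (Tgfb2, the 3 receptors, Ltbp1, Ltbp3 and Ltbp4). ISO 3 was the highest of all 6 for 6 of the 10 (Tgfb1, Tgfb2, Tgfbr1, Ltbp1, Ltbp2 and Ltbp4). Against saline 1 and 2, saline 3 was lower by 0.69 to 1.03 on the log2 scale for the 3 receptors, Ltbp1, Ltbp3 and Ltbp4. The lengths of these genes run from 4788 to 8248 bases. All genes over 6000 bases had a median of -0.60 in saline 3, so 6 of the 10 genes lay below the median of genes of their own length range. Tgfb1 (0.24), Ltbp2 (-0.08), Tgfb3 (-0.11) and Tgfb2 (-0.20) lay above it. Ltbp2 and Tgfb2 held only 35 and 29 reads in saline 3, and the pseudocount of 1 shrinks differences of such low genes. With each library's trend with gene length removed, an alternative added after the values were seen, the log2 fold changes were 1.34 for Ltbp2, 0.49 for Tgfbr1, 0.47 for Tgfb1, 0.45 for Tgfb3 and -0.19 for Tgfbr3. They were 0.35 for Tgfbr2, 0.31 for Ltbp3, 0.17 for Ltbp4, 0.15 for Tgfb2 and 0.09 for Ltbp1. Above 0 were 9 of the 10 genes (49.6% of all genes), and 0 genes of 12261 were called (0%). Tgfb2 then no longer had separate groups, and Tgfb3, Tgfbr1 and Ltbp2 did (3 of 10, against 6.87% of all genes upward).

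**Figure D3:**
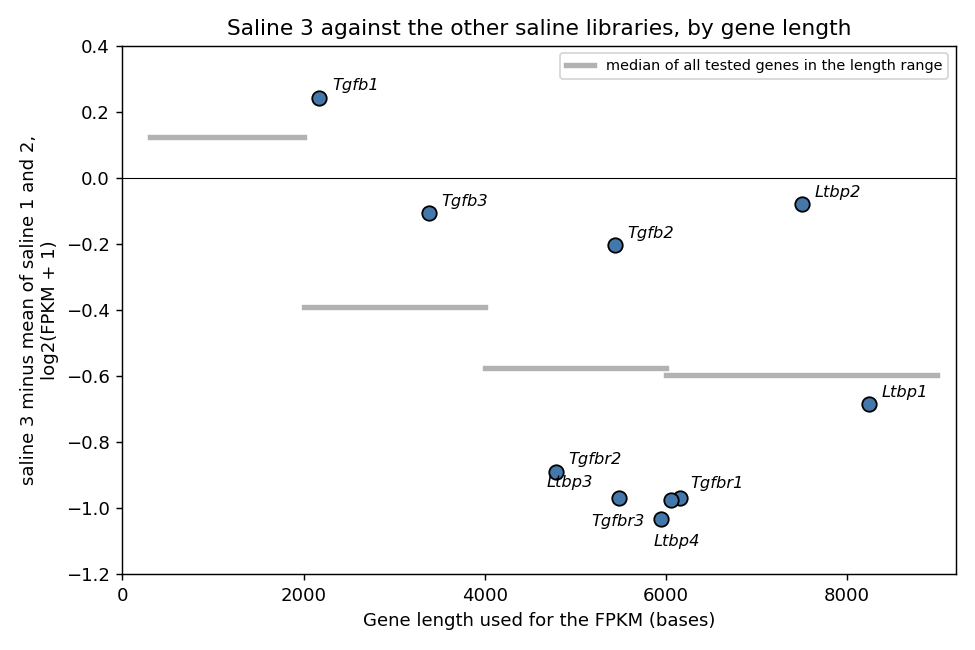
Difference of saline 3 from the mean of saline 1 and 2 in log2(FPKM + 1) (y axis) against the length used for the FPKM in bases (x axis), for each of the 10 genes, with grey lines at the median of all tested genes in each length range. The 3 receptors, Ltbp3 and Ltbp4 lie between -0.89 and -1.03, below the grey lines, and Ltbp2 is at -0.08 despite its length.

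The classes were compared first by their summed FPKM, which depends on the scaling by library total. Shares of these sums within a library, given after, are free of it, but not of the trend with gene length in saline 3. The sum of the 3 ligands was 36.6, 46.2 and 43.4 FPKM in saline and 56.2, 67.2 and 82.2 FPKM in ISO, so every ISO library was above every saline library (exact permutation test, two-sided, p = 0.1, the smallest that 3 against 3 allows). The receptor sum was 33.7, 29.8 and 15.0 FPKM in saline and 33.9, 34.1 and 42.3 FPKM in ISO, again without overlap, although saline 1 and ISO 1 nearly met. The latent binder sum was 190, 199 and 95.4 FPKM in saline and 218, 204 and 238 FPKM in ISO, also separate (exact permutation p = 0.1 for each of these sums). Of all single genes tested, 12.8% were separate upward. The mean of saline 1 and 2 alone was 41.4 FPKM for the ligands, 31.7 FPKM for the receptors and 195 FPKM for the latent binders.

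The make-up of the ligands did not separate the groups. Tgfb1 took 54.6 ± 4.28% of the ligand sum in saline and 53.8 ± 8.51% in ISO (exact permutation p = 1), and Tgfb3 took 40.0 ± 4.20% and 41.3 ± 8.17% (exact permutation p = 0.9). Tgfb2 took 5.37 ± 1.32% and 4.92 ± 0.860%. In the receptors, Tgfbr3 had 30.8, 38.6 and 33.7% in saline and 21.1, 28.7 and 25.3% in ISO, so its share was lower in each ISO library, by 9.34 percentage points on average. Tgfbr1 had 22.7, 25.4 and 22.6% in saline and 27.4, 25.8 and 35.8% in ISO, higher in each. The share of Ltbp2 in the latent binders was 0.716, 1.20 and 1.76% in saline and 2.99, 3.14 and 4.15% in ISO. Each of these 3 separate shares had an exact permutation p = 0.1 and an adjusted p of 0.333 over the 10 shares tested, so none passed. With 1 library left out in turn, the difference ran from -11.2 to -7.23 percentage points for Tgfbr3, from 2.99 to 7.97 for Tgfbr1 and from 1.84 to 2.47 for Ltbp2. Without saline 3 it was -9.66 for Tgfbr3, 5.57 for Tgfbr1 and 2.47 for Ltbp2, and the Tgfb1 and Tgfb3 differences turned sign (1.41 and -0.49).

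**Figure D4:**
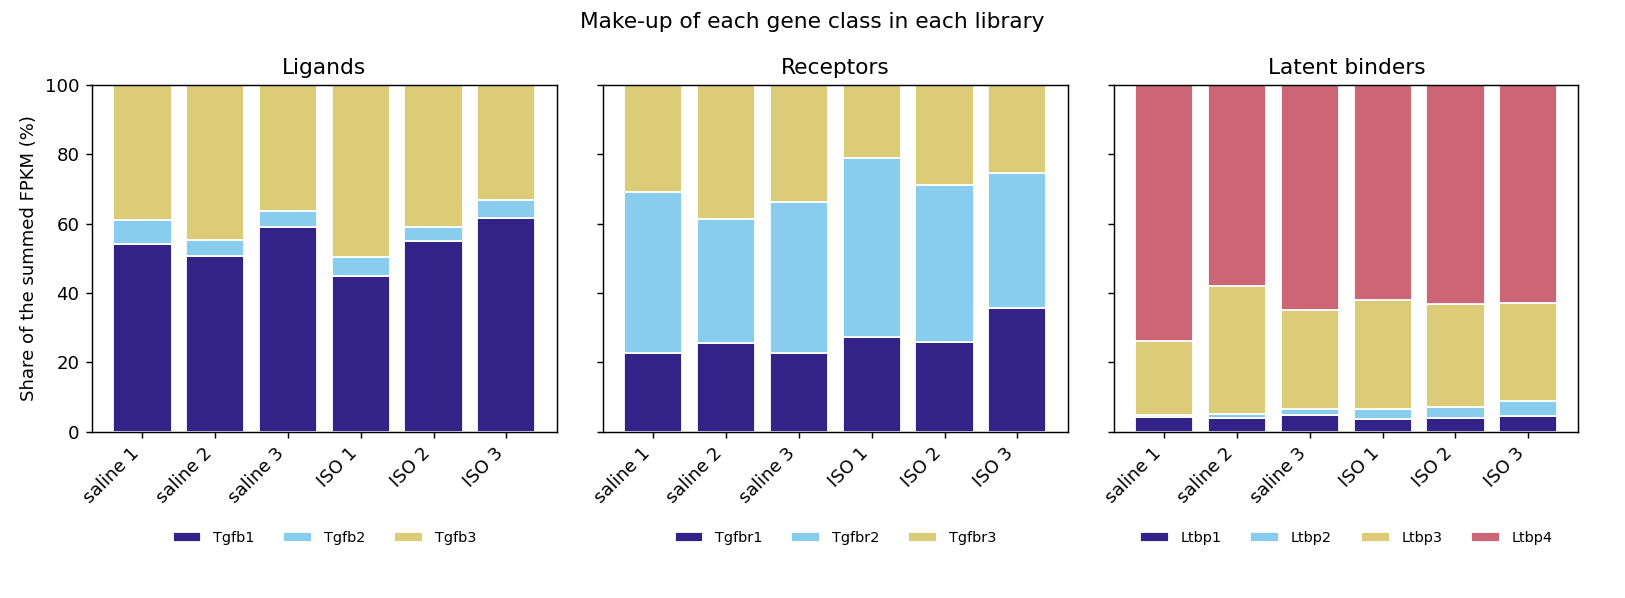
Share of the summed FPKM in percent (y axis) taken by each ligand, receptor and latent binder in each of the 6 libraries (x axis). The Tgfbr3 segment is smaller in the ISO libraries (21.1 to 28.7%) than in the saline libraries (30.8 to 38.6%), and the Ltbp2 segment is wider in ISO (2.99 to 4.15%).

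By mean over all libraries the order of levels was Ltbp4 (122 FPKM), Ltbp3 (56.4), Tgfb1 (30.3), Tgfb3 (22.2), Tgfbr2 (13.7), Tgfbr3 (9.09), Tgfbr1 (8.63), Ltbp1 (7.82), Ltbp2 (4.70) and Tgfb2 (2.79). Ltbp4 was above Ltbp3, Ltbp3 above Tgfb1 and Ltbp1 above Ltbp2 in 6 of 6 libraries. Neighbours from Tgfb1 to Ltbp1 changed places: Tgfb1 was above Tgfb3 in 5 of 6 libraries, Tgfbr3 above Tgfbr1 in 4 and Tgfbr1 above Ltbp1 in 3. Ltbp2 was above Tgfb2 in 4 of 6, with the 3 ISO libraries among them. The order was the same without saline 3, but it differed between the groups. Tgfbr1 was below Tgfbr3 and Ltbp1 by the saline means (6.21, 8.98 and 6.79 FPKM) and above both by the ISO means (11.1, 9.21 and 8.85 FPKM). Ltbp2 was below Tgfb2 with saline (1.81 and 2.22 FPKM) and above it with ISO (7.60 and 3.35 FPKM).

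Likeness across the 6 libraries is a description, since the points share depth, length effects and saline 3. All 45 pairs of the 10 genes had a Pearson r above 0 in log2(FPKM + 1), from 0.21 (Tgfb1 and Tgfbr3) to 0.98 (Tgfbr1 and Ltbp1). Without saline 3, over 5 libraries, 37 of the 45 pairs were above 0 and the range was -0.65 (Tgfbr2 and Tgfbr3) to 0.96 (Tgfb2 and Tgfbr1). Tgfb3 and Ltbp2 had an r of 0.95 with all libraries and 0.93 without saline 3. The genes most like Ltbp2 were Arpc2 (r 0.991), Gng11 (0.991) and Meox1 (0.990). Meox1, a transcription factor of activated fibroblasts, had means of 22.3 FPKM with saline and 41.5 FPKM with ISO. Most like Tgfb3 were Kmt2a, Nlrc5 and Col27a1 (r 0.998, 0.995 and 0.994), most like Tgfb1 Rap2b, Mga and Serp1 (0.994, 0.987 and 0.987), and most like Tgfb2 Wnt4, Rhoq and Coasy (0.990, 0.983 and 0.978). Tgfbr1 was most like Col3a1 (0.995), Purb and Trmt10a (0.993 each), and Tgfbr2 most like Endod1, Nepro and Pttg1ip (0.993, 0.993 and 0.992). For the genes named here r was at least 0.9688 without saline 3. With all libraries 2451 genes had an r over 0.9 with Ltbp4, 1310 with Tgfbr1, 228 with Ltbp2 and 168 with Tgfb3. Without saline 3 these counts were 212, 635, 641 and 497.

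The rest of the pathway was described by 6 lists of 58 genes, of which 54 were tested and 0 passed. In ISO 47 of the 54 had a log2 fold change above 0 and 7 below, with a median log2 fold change of 0.51 (0.42 without saline 3) against 0.20 over all genes (0.06 without saline 3). The groups did not overlap for 22 upward (12.8% of all genes) and 1 downward (3.72% of all genes).

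Of the genes that keep the ligands latent or activate them, 9 of 11 tested were higher (median 0.53), and 0 passed. Mmp2, a matrix protease, was at 25.7, 36.95 and 23.9 FPKM in the saline group, where ISO 1 to 3 had 53.9, 57.6 and 75.1 FPKM, with no overlap. Thbs1, the thrombospondin that frees the ligand, was at 5.05, 10.98 and 11.3 FPKM in the saline libraries against 11.8, 25.5 and 30.3 FPKM in the ISO libraries. Itgb5, an integrin chain that pulls on the latent complex, was at 33.1 ± 5.11 and 51.4 ± 9.38 FPKM. Itgb6, the activating integrin chain of epithelia, went the other way, at 2.78, 1.87 and 3.50 FPKM with saline, and 1.14, 0.797 and 0.632 FPKM with ISO, and was the 1 gene of the lists that was lower with no overlap.

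Fibrillin microfibril and matrix partners were higher for 8 of 9 tested genes (median 0.68), and 0 passed. Mfap4, a microfibril protein, was at 42.9, 72.4 and 72.5 FPKM in the saline group, where ISO 1 to 3 had 103, 106 and 204 FPKM, with no overlap. Fbln5, an elastic fibre protein that binds Ltbp4 and Ltbp2, was at 8.30 ± 0.887 and 14.5 ± 5.64 FPKM, also separate. Mfap2 was at 3.55 ± 2.31 and 7.57 ± 2.38 FPKM, and its log2 fold change of 1.05 was 0.51 without saline 3. Fn1, fibronectin, was at 23.4 ± 8.98 and 47.2 ± 20.2 FPKM with overlap.

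All 4 proteoglycans that bind the ligands (Bgn, Fmod, Aspn and Dcn) were higher (median 1.15), and 0 passed. Fmod, fibromodulin, was at 21.4, 14.9 and 14.9 FPKM in the saline libraries against 43.2, 39.4 and 26.4 FPKM in the ISO libraries. Aspn, asporin, was at 12.4, 18.9 and 2.60 FPKM with saline, and 34.9, 28.1 and 54.7 FPKM with ISO, and its log2 fold change of 1.97 was 1.25 without saline 3. Bgn was at 268, 272 and 284 FPKM in the saline group, where ISO 1 to 3 had 705, 691 and 591 FPKM. Dcn, decorin, was at 492 ± 163 and 829 ± 141 FPKM with the groups overlapping (saline 1 above ISO 3).

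Co-receptors and receptor regulators had 5 of 7 tested genes higher (median 0.39), and 0 passed. Without saline 3 the median was 0.20 with 7 of 7 higher, and with the length trend removed it was 0.12 with 4 of 7 higher. Acvrl1, the endothelial type I receptor, was at 16.6, 16.7 and 21.3 FPKM in the saline libraries against 27.8, 25.97 and 21.3 FPKM in the ISO libraries, the only separate gene of this list, with 21.35 FPKM in ISO 3 just above 21.30 FPKM in saline 3. Its partner Eng, endoglin, was at 279, 271 and 87.8 FPKM with saline, and 308, 276 and 326 FPKM with ISO, and its log2 fold change of 0.68 was 0.14 without saline 3. Tgfbrap1, a receptor-associated protein, was at 8.16 ± 3.06 and 10.9 ± 0.865 FPKM, and Bambi, a decoy receptor, at 3.47 ± 1.13 and 4.74 ± 0.508 FPKM. Without saline 3 their log2 fold changes went from 0.44 to 0.14 and from 0.39 to 0.20.

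Smads and their regulators were higher for 10 of 11 tested genes (median 0.43), and for 8 of 11 without saline 3 (median 0.31), and 0 passed. With the length trend removed the median was 0.16. Skil, a repressor of Smad complexes, was at 4.29, 4.07 and 1.23 FPKM in the saline group, where ISO 1 to 3 had 4.39, 8.14 and 10.6 FPKM, and its log2 fold change of 1.08 was 0.68 without saline 3. Smurf2, a ubiquitin ligase that removes the receptors, was at 6.03 ± 4.02 and 11.2 ± 0.965 FPKM, and its log2 fold change of 1.04 was 0.38 without saline 3. Smad2, a signal carrier, was at 1.59, 1.56 and 1.34 FPKM in the saline libraries against 2.54, 3.07 and 2.03 FPKM in the ISO libraries. Smad7, the inhibitor that the pathway itself induces, was at 6.39 ± 1.85 and 8.75 ± 0.798 FPKM with overlap.

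Textbook targets had a log2 fold change above 0 for 11 of 12 genes (median 0.89) and for 10 of 12 without saline 3 (median 0.78), and 0 passed. Tagln, at 0.02, is among the 11 although its mean FPKM was lower in ISO. Cdkn1a, a cell cycle inhibitor, was at 7.99, 11.02 and 10.3 FPKM with saline, and 16.4, 30.97 and 26.3 FPKM with ISO. Postn, a matricellular protein of activated fibroblasts, was at 38.2, 41.9 and 15.9 FPKM in the saline group, where ISO 1 to 3 had 80.8, 82.5 and 134 FPKM, and Col1a1 and Col1a2, the type I collagen chains, had log2 fold changes of 0.96 and 1.06. Acta2 and Tagln, contractile genes of myofibroblasts and of smooth muscle, were at 136 ± 47.8 and 109 ± 36.7 FPKM and at 82.1 ± 36.2 and 77.4 ± 8.96 FPKM. Acta2 and Tagln, like the marker genes Myl2, Myl7, Scgb1a1, Cthrc1 and Gp1bb, are named beside the rule, after their values were seen.

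**Figure D5:**
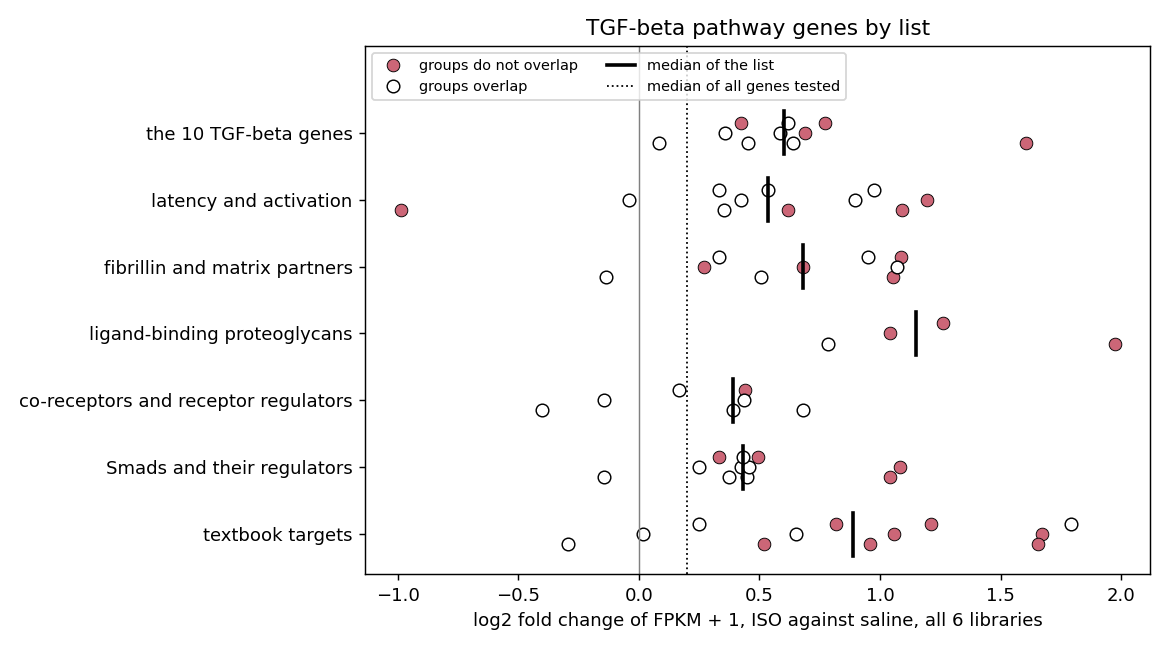
Log2 fold change of FPKM + 1 between ISO and saline (x axis) for the 10 TGF-beta genes and the tested genes of the 6 pathway lists (rows), with filled points where the groups do not overlap, a bar at each list's median and a dotted line at the median of all genes (0.20). Medians run from 0.39 for co-receptors to 1.15 for the proteoglycans, and Itgb6 is the filled point on the left.

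Markers of some cell types also differed between the groups, in either direction, while those of others overlapped. In these bulk samples more cells of a type and more RNA per cell cannot be told apart. Activated fibroblast markers were higher in ISO for 6 of 6 genes, with a summed level of 74.1 to 96.1 FPKM in saline and 161 to 255 FPKM in ISO, and Cthrc1 was at 0 in every library but ISO 2. Meox1 and Postn, named above, belong to that list. Macrophage markers were higher for 7 of 7 (233 to 416 and 457 to 667 FPKM), and platelet markers for 5 of 6 (13.0 to 26.2 and 31.5 to 38.0 FPKM, with Gp1bb at 0 in saline 1). Fibroblast markers were higher for 6 of 7 and overlapped in sum (1460 to 2052 and 1757 to 2857 FPKM). Endothelial markers were likewise higher for 6 of 6 by mean, but overlapped in sum (307 to 678 and 605 to 760 FPKM). Smooth muscle and pericyte markers were higher for 4 of 7 and overlapped in sum (269 to 420 and 310 to 438 FPKM). Of all genes tested, 68.1% had a log2 fold change above 0. Genes of muscle of both chambers were lower for 5 of 5 (24859 to 27963 and 11494 to 17242 FPKM), and red cell genes were higher for 5 of 5 (2109 to 4677 and 10806 to 20845 FPKM). ISO 3 had the highest sum of adipocyte markers (341 FPKM, where the others ran from 44.0 to 248), of lymphocyte markers (40.2 FPKM, the others 3.40 to 13.9) and of cartilage markers (91.5 FPKM, the others 0.510 to 84.5), and the lowest Myl2 (140 FPKM). The part of these cells in the levels of the TGF-beta genes was not tested.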

How the data were processed

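The authors deposited FPKM values for 21989 gene symbols, 1 column per library, per the file headers. Per the submitters' processing notes the tools were HISAT2 2.1.0, HTSeq 0.7.2, Cufflinks 2.2.1, DESeq, fastp 0.20.0 and CASAVA 1.8 (build GRCm38, roles not stated); annotation and strand setting are not given in the sources used here. GENCODE exons of Ltbp2 share 764 bases (9.34%) with D030025P21Rik on the other strand, so their reads could mix. Tgfb2, Tgfb3 (other strand) and Tgfbr3 (same strand) share 2.14 to 7.60% with predicted genes.

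Genes averaging 1 FPKM or more (12269) were tested as log2(FPKM + 1), using limma 3.58.1 under R 4.3.3 (mean-variance trend, group as only term, Benjamini-Hochberg adjustment). The pseudocount of 1 understates changes of low genes. Whole reads and gene lengths were recovered from the steps of the FPKM for 100% of the 16816 genes detected in 2 or more libraries (tolerance 0.0001 reads), and both steps were tested on simulated data. Shares were tested with exact permutation in scipy 1.17.1, two-sided. No library pair agreed within sampling noise, so none was treated as a copy of another. Median chi-square was at least 4.47 times what sampling gives (ISO 1 and ISO 2), and 9.79 times for the next closest pair (saline 1 and saline 2). All 6 libraries were kept in the main fit, including saline 3, which this check does not judge. The 10 genes and the lists were chosen with earlier results of these data known. Named genes are the 10 members, up to 4 tested genes of each list by p, and the 3 genes most like a member; 2 targets and 5 marker genes were added after their values were seen. Alternatives were other pseudocounts, filters, scalings, weights, a replicate block, voom and each library left out.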

Additional observations from a re-analysis of the deposited data

How the results depend on the processing

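Calling 0 genes held under the alternatives run, except with sample quality weights (768 genes, 6.26% of those tested) and without ISO 1 (16 genes), so leaving out 1 library gave 0 to 16. The weights gave saline 3 a weight of 0.0772 and called 2 of the 10 genes, Ltbp2 (log2 fold change 1.55, adjusted p = 0.0150 with limma) and Tgfb3 (0.78, adjusted p = 0.0253). With the weights and saline 3 left out, added after the data were seen, 0 genes were called and these adjusted p were 0.0958 and 0.136. Over all other alternatives the adjusted p ran from 0.288 to 0.874 for Ltbp2 and from 0.407 to 0.874 for Tgfb3.

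Tgfbr3 turned sign with median-of-ratios scaling (-0.10), quantile normalization (-0.16), quality weights (-0.17), weights without saline 3 (-0.22) and the length trend removed (-0.19), and ran from -0.24 (without saline 3) to 0.28 (without saline 2), with -0.02 without ISO 3. Ltbp4 was at -0.0083 with quality weights. Median-of-ratios scaling moved the median of all genes from 0.20 to 0.02, and 9 of the 10 genes lay above it in both. With quality weights 7 of the 10 did (not Tgfbr3, Ltbp1 and Ltbp4), with a median of 0.22 against 0.05 over all genes. Quantile normalization put Tgfb2 at 0.15. The number of the 10 genes with separate groups was 3 to 4 under the scalings (6.89 to 7.48% of all genes) and 4 to 7 with 1 library left out: 7 without saline 1 (20.1%), 5 without saline 2 (22.7%), saline 3 (18.3%), ISO 1 (19.1%) or ISO 2 (17.5%), and 4 without ISO 3 (20.1%). The Tgfb1, Tgfb2, Tgfb3, Ltbp3 and Ltbp4 shares turned sign when 1 library was left out, running from -4.75 to 3.70, -0.920 to 0.308, -2.87 to 5.29, -2.87 to 4.97 and -6.68 to 1.25 percentage points.

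The replicate block called 0 genes, with 553 at an unadjusted p under 0.05 against 774 without it, and an adjusted p of 0.752 for Ltbp2 with limma. Across genes, libraries with the same number did not deviate together (correlations of 0.01, -0.15 and -0.03). Saline 3 and ISO 3 nevertheless both had high Scgb1a1 (201 and 182 FPKM). Whether libraries with the same number shared a batch or handling was not tested. Depth limits Tgfb2, with 29 to 135 reads per library. A filter of 5 FPKM left Tgfb2 and Ltbp2 out.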
